A study of Saccharomyces cerevisiae with 21 samples.

Results

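Rehydration of dried baker's yeast was followed here between 45 and 90 min after medium was returned to dry cells. The comparison set the 3 arrays titled 90 min post rehydration against the 3 titled 45 min, 6 of the 21 arrays in the series, and was read across 9275 probe sets of the Affymetrix YG_S98 chip, of which 6504 are annotated with 1 gene. Both groups were BY4743, a diploid Saccharomyces cerevisiae strain without working URA3, LEU2 and HIS3 genes. Both had been grown at 30 °C in YPD, which is rich and holds glucose, until the A600 was 0.8, were moved to YPD diluted 1:20, dried for 42 h at 22 to 25 °C, held for 72 h at 20% relative humidity, and given 1:20 YPD again. Cells of 4 plates were pooled in a flask, and total RNA was taken at each time. The labels do not say whether the 3 samples of a time came from separate cultures, so the spread behind each p-value may be technical. No array held undried cells kept in 1:20 YPD for the same time, so time in the medium and recovery from drying cannot be told apart.

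Dry yeast cells carry transcripts made while nutrients ran low, and on return to water and sugar they can resume growth. Growth in glucose calls for ribosomes, whose RNA is cut and modified with the help of small nucleolar RNAs (snoRNAs), and glucose represses genes of respiration, of storage carbon use and of autophagy, the breakdown of cell contents in the vacuole. Those classes, with stress protection and the cell cycle, order the account that follows.

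Values are signals of the deposited table, already scaled per array, and differences are 90 min minus 45 min on the log2 scale with the standard error of the fit. A probe set is called higher or lower at a Benjamini-Hochberg adjusted p under 0.05 in a limma fit over all 21 arrays. Background was a signal of 29.6, and 79.0% to 80.2% of probe sets were above it on the 6 arrays. In bulk RNA, fewer cells with a transcript and less transcript per cell cannot be told apart. Of the genes the strain lacks in working form, URA3 was at or below 3.3 on all 6 arrays, LEU2 lay between 23.5 and 49.5 in its brightest probe set, near background, and HIS3 lay between 112.5 and 131 in its brighter one.

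The arrays of the 2 times were scanned on different days, so scan day and time cannot be told apart. Replicate 2 of 90 min was scanned on a day of its own and stood apart in ribosomal RNA controls. Its main 18S rRNA control probe set read 9912, against 23.2 to 334.3 on the other 20 arrays. It was the highest of the 6 arrays in 8 of 10 rRNA control probe sets. Results are therefore also given without that array. The 3′ to 5′ log2 ratio of ACT1, a measure of RNA quality, averaged 2.43 ± 0.21 at 90 min and 1.89 ± 0.20 at 45 min (SD, n = 3 each), a difference of 0.53 with a two-sided exact permutation p = 0.1, the smallest 3 against 3 can give. The ratios of SPT15 and SRB4 differed by 0.31 and 0.15 (exact permutation p = 0.2 and p = 0.7, n = 3 each). The part of RNA quality in the results below was not tested.

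**Figure D1:**
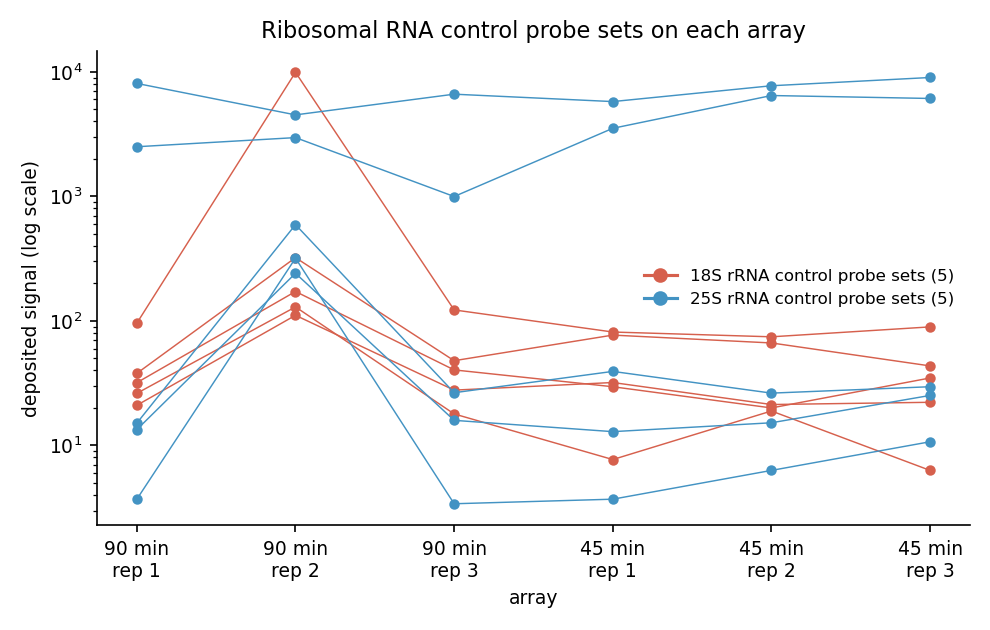
Deposited signal (log scale) of the 5 18S and 5 25S rRNA control probe sets on the 3 arrays of 90 min, left, and the 3 of 45 min, right; each line joins 1 probe set. Replicate 2 of 90 min is the highest array in 8 of 10 of them.

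At 90 min, 201 probe sets were higher (2.17% of those tested) and 307 were lower (3.31%), 508 in all (5.48%). Among probe sets with 1 gene, 85 were higher (1.31%) and 294 lower (4.52%). The changes were small: the median called rise was 0.59 and the median called fall -0.57, and 27 rises and 23 falls reached 2-fold. The median over all probe sets was -0.03. In 501 of the 508 the 3 arrays of 90 min did not overlap the 3 of 45 min, as was so for 2179 probe sets (23.5%) over the whole table. Without replicate 2 of 90 min, 118 were higher (1.27%) and 227 lower (2.45%), and 265 of the 508 calls were kept. Leaving out replicate 3 of 90 min gave 100 higher and 164 lower, and leaving out replicate 2 or replicate 1 of 45 min gave 96 and 146, or 153 and 186. With scan day as a random block in the fit, 71 were higher and 115 lower. With only the 6 arrays in the fit, 1 probe set was higher and 1 lower, while 653 were higher and 879 lower at an unadjusted p under 0.05. Of the 508 calls, 501 were among these. Both fits take the same log2 differences from the same 6 arrays, so this overlap is not counted as support. The deposited scaling sets the zero of these differences. Scaled instead on the hybridization controls BioB, BioC, BioD and Cre, here called spike-in controls, the median of all probe sets shifted by -0.33. Then 13 probe sets were higher and 701 lower, so that 1.82% of calls were rises, against 39.6% as deposited. Such controls are made to be added to the labelled mix, so this scaling is not a calibration to RNA input. Every rise below is relative to the other probe sets of its array.

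**Figure D2:**
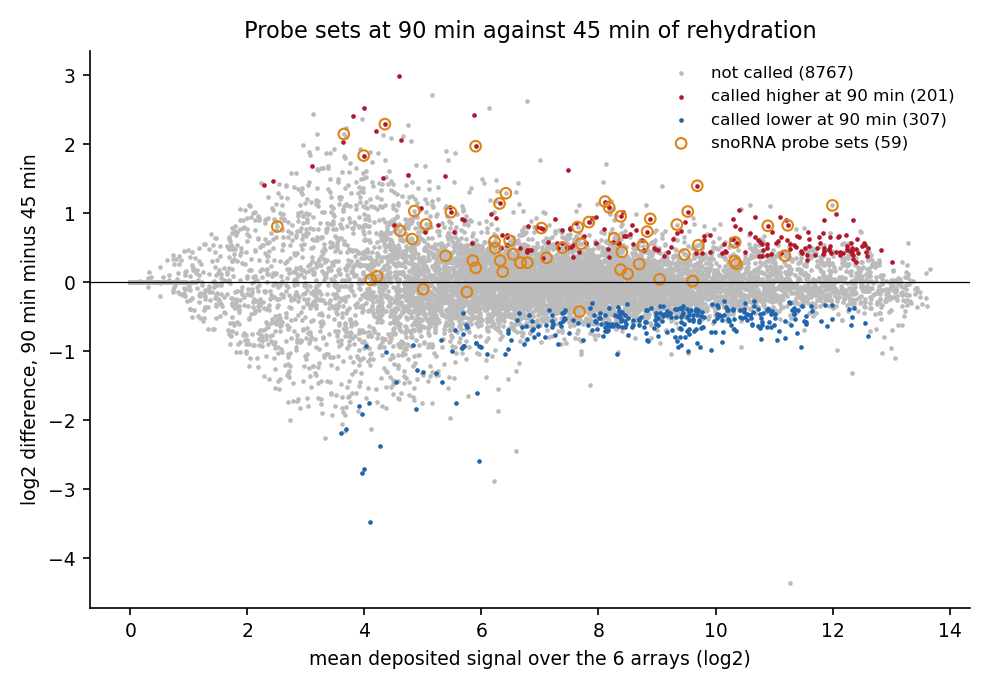
Each point is 1 of 9275 probe sets: mean signal over the 6 arrays (log2) against the log2 difference, 90 min minus 45 min. The 201 probe sets called higher are red and the 307 called lower blue; orange rings mark the 59 snoRNA probe sets, of which 56 lie above 0.

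The steps on either side differed in their number of calls. From 15 to 45 min, 25 probe sets were higher (0.27%) and 14 lower (0.151%) at the later time, and from 90 to 360 min, 1429 were higher (15.4%) and 2042 lower (22%). These steps share arrays with the comparison of 90 and 45 min, so values of the neighbouring times are given beside it and not counted as support. All arrays of 15 and 45 min were scanned on the same day, and those of 90 min on other days. The arrays of 360 min shared a day with replicates 1 and 3 of 90 min. The steps also differ in length, so their counts of calls do not compare rates of change.

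snoRNAs gave 9 of the 27 called rises of at least 2-fold, beside 10 in probe sets with no single gene, 7 in protein-coding genes and 1 in a mitochondrially encoded gene. They guide or assist the cutting and chemical modification of ribosomal RNA. Of 59 snoRNA probe sets, for 57 genes, 16 were called higher and 0 lower, and 56 had a difference above 0, with a median of 0.58. The whole table had 2.17% called higher and a median of -0.03. With spike-in scaling the snoRNA median was 0.25 and 5 were called. The class was set apart after its values were seen. SNR48, which guides methylation of 25S rRNA, read 399, 386 and 360.5 at 90 min, against 173, 141 and 201 at 45 min. All 3 arrays of 90 min were above all 3 of 45 min, and the difference was 1.17 ± 0.17 (adjusted p = 0.00212). SNR48 had averaged 223 ± 12.2 at 15 min, and it averaged 516 ± 87.4 at 360 min (SD, n = 3 each). Without replicate 2 of 90 min its difference was 1.16 (adjusted p = 0.00689).

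SNR4, which guides acetylation of 18S rRNA, read 3330, 3374 and 2551 at 90 min, against 1757, 1701 and 1727 at 45 min (0.82 ± 0.14, adjusted p = 0.0053). SNR17A, the U3 RNA needed for the first cuts of the ribosomal RNA precursor, read 498, 716 and 503 at 90 min, against 348, 330.3 and 339 at 45 min. In both, every array of 90 min lay above every array of 45 min. SNR17A passed in the whole fit (0.73 ± 0.20, adjusted p = 0.0459) and did not without replicate 2 (0.56, adjusted p = 0.148). SNR42, of the class that guides pseudouridine formation, read 92.2, 146 and 89.2 at 90 min, against 55.4, 34.6 and 58.4 at 45 min (1.14 ± 0.23, adjusted p = 0.0113). SNR52, a methylation guide, was higher by 0.95 ± 0.19 (adjusted p = 0.00977). SNR46, SNR38 and SNR33 were higher by 1.02, 0.92 and 0.87. Without replicate 2 their differences were 0.59, 0.55 and 0.66, and SNR46 alone of these 3 kept its call.

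SNR72 to SNR78 lie side by side on chromosome XIII and are cut from 1 long transcript. 5 of the 7, SNR74 to SNR78, were called higher. SNR75 read 267, 553 and 379 at 90 min, against 178, 164 and 202 at 45 min (1.08 ± 0.19, adjusted p = 0.00532; 0.82 without replicate 2, adjusted p = 0.0109). SNR77 read 604, 1791 and 1267 at 90 min, against 401, 351 and 534 at 45 min (1.40 ± 0.31, adjusted p = 0.0158; 1.05 without replicate 2, adjusted p = 0.0574). The 3 arrays of 90 min stood above those of 45 min in both, but spread widely among themselves. SNR74, a dim probe set, read 55.3, 125 and 101 at 90 min, against 11.2, 27.7 and 37.6 at 45 min (adjusted p = 0.0489; 0.135 without replicate 2). SNR78 read 35.3, 38.6 and 24.1 at 90 min and was at background in all 3 samples of 45 min, at least 1.10-fold higher. SNR76 was higher by 0.78 and was not called without replicate 2 (adjusted p = 0.0877). SNR73 (0.64) and SNR72 (0.56) did not pass, but without replicate 2 SNR73 did (0.86, adjusted p = 0.0174).

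Replicate 2 was the highest of the 3 arrays of 90 min in 15 of the 16 called snoRNA probe sets, and in 96 of all 201 called rises. It is the array with raised rRNA controls. Replicates 1 and 3 of 90 min lay above all 3 arrays of 45 min in 33 of the 59 (55.9%), as was so for 14.3% of all probe sets. Without replicate 2, 8 snoRNA probe sets were called, with a median of 0.50. Most mature snoRNAs have no poly(A) tail, and the part of the labelling primer, which the labels do not name, was not tested. At 360 min the mean was above that of 90 min in 58 of 59, and 28 were called higher, against 15.4% of all probe sets. From 15 to 45 min 0 of 59 were called, where 0.27% of all probe sets were called higher and 0.151% lower. That 0 therefore does not set the class apart. SNR50 had the lowest difference of the class, at 158, 150 and 219 at 90 min, against 238, 239.7 and 220.4 at 45 min (-0.43, adjusted p = 0.195).

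**Figure D3:**
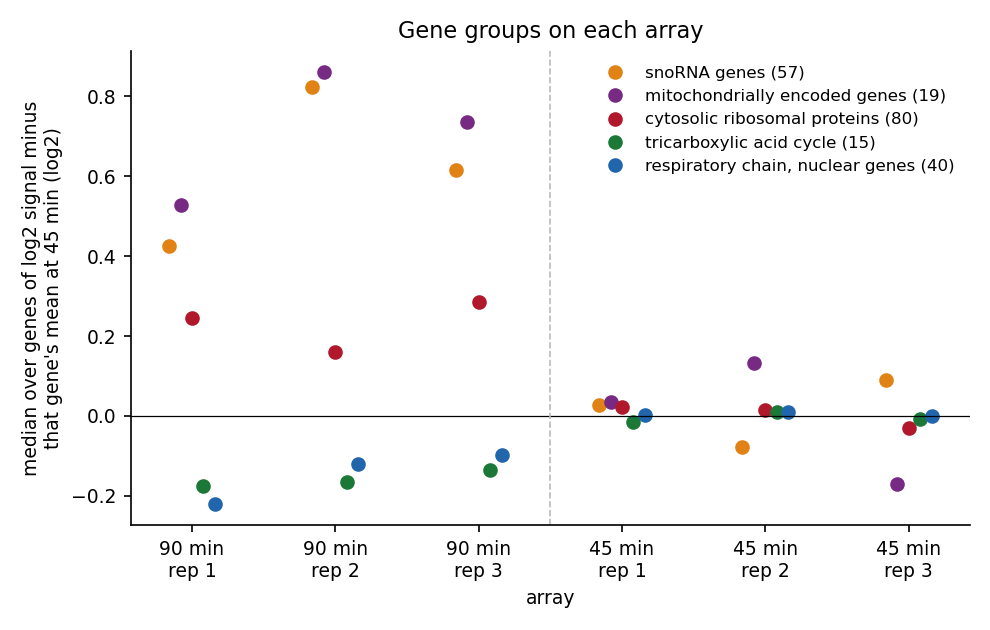
Median, over the genes of 5 groups, of each gene's log2 signal minus its own mean at 45 min, on the 3 arrays of 90 min (left) and the 3 of 45 min (right); numbers in brackets are genes measured. At 90 min the snoRNA group lies highest in replicate 2, and the nuclear respiratory chain and citric acid cycle groups lie below 0 on all 3 arrays. All nuclear protein-coding genes, not drawn, had medians of -0.07, -0.03 and -0.06 on replicates 1, 2 and 3 of 90 min.

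Of 140 ribosome biogenesis genes 3 were called higher and 4 lower, with a median of -0.02, or 2.14% and 2.86%, against 1.31% and 4.52% of probe sets with 1 gene. Among the 3 was CBF5, the pseudouridine synthase that works with one class of snoRNA. It read 261, 285 and 351 at 90 min, against 185, 205 and 212 at 45 min (0.57 ± 0.12, adjusted p = 0.0128). The other 2 were JIP5 (0.47), of large subunit assembly, and ENP2 (0.43), of small subunit assembly, which was not called without replicate 2. Those lower were UTP30, TIF6, RRS1 and the RNA helicase MTR4. TIF6, which keeps new large subunits from joining small ones too early, read 798, 591 and 678 at 90 min, against 962, 1045 and 996 at 45 min (-0.55 ± 0.10, adjusted p = 0.00535). MTR4, of the nuclear RNA exosome, differed by -0.70 ± 0.13, and RRN3, which starts transcription by RNA polymerase I, by -0.51 ± 0.09 (adjusted p = 0.00603). UTP30 was at background in all 3 samples of 90 min and was at least 1.54-fold lower there. NOP58, a core protein of methylation guide particles, gave unlike answers, higher by 0.80 in 1 probe set (adjusted p = 0.00535) and not passing in its other 3.

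Of 80 genes for cytosolic ribosomal proteins 5 were called higher and 0 lower (6.25%, against 1.31% of probe sets with 1 gene), and 64 had a difference above 0, with a median of 0.26 as deposited and -0.07 with spike-in scaling. RPS26B read 80.4, 42 and 181 at 90 min, against 17.1, 16.8 and 13.7, all background, at 45 min, at least 3.41-fold higher (adjusted p = 0.0181). It reached 442.5 ± 43.9 at 360 min. Its near-identical copy RPS26A could share its probes. RPS12 read 1806, 2053 and 1946 at 90 min, against 1540, 1472 and 1436 at 45 min (0.38 ± 0.09, adjusted p = 0.027). RPL15A differed by 0.56 ± 0.15 and RPS29A by 0.87 ± 0.22, and each has a near-identical copy. RPS22B passed in the probe set that stands for it (0.86), while its other 2 gave 0.18 and 0.02 (limma adjusted p = 0.447 and adjusted p = 0.972). Without replicate 2, 3 of the 80 were called, with a median of 0.21, and RPS12, RPL15A and RPS29A had adjusted p of 0.0814, 0.111 and 0.0857. Between 90 and 360 min 68 of the 80 were called higher at the later time, with a median of 1.10, against 15.4% of all probe sets called higher.

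Mitochondrially encoded genes were higher by a median of 0.71 over 19 genes, of which 2 were called higher, COB and Q0255 (10.5%, against 1.31% of probe sets with 1 gene), and 0 lower. By their brightest probe sets 17 lay above 0 and 2, COX1 and OLI1, below. The 19 annotated genes are not all on separate transcripts. The reading frames named AI lie in introns of COX1, and those named BI in introns of COB. Counts and medians over the 19 therefore do not rest on independent genes. This group, too, was set apart after its values were seen. COB, cytochrome b of complex III, read 1441, 1798 and 1712 at 90 min in its brighter probe set, against 936, 971 and 897 at 45 min. All arrays of 90 min lay above those of 45 min, and the difference was 0.81 ± 0.17 (adjusted p = 0.0123; 0.75 without replicate 2, adjusted p = 0.044). The other COB probe set gave 0.91 ± 0.23, and did not pass without replicate 2 (0.66, adjusted p = 0.108). The call of Q0255 rests on 1 probe set with a cross-hybridization suffix (1.62 ± 0.31, limma adjusted p = 0.00816). Its other probe sets did not pass (0.95, limma adjusted p = 0.0619, and 0.91, adjusted p = 0.359). COX1, the core subunit of cytochrome c oxidase, gave unlike answers in its 3 probe sets. It was higher by 0.49 ± 0.09 in 1 (adjusted p = 0.00532), did not pass at 0.64 in another, and was at -0.12 in the third. ATP6 (1.12 ± 0.40, adjusted p = 0.115) and COX3 (0.64 ± 0.22, adjusted p = 0.102) did not pass. OLI1, the ring subunit of ATP synthase, read 4993, 5819 and 6162 at 90 min, against 7272, 7478 and 7229 at 45 min, and did not pass (-0.38, adjusted p = 0.427). As with the snoRNAs, yeast mitochondrial transcripts largely lack a poly(A) tail. Without replicate 2 the median of the 19 was 0.61.

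Calls among nuclear genes of respiration went mostly the other way. Of 40 genes for the respiratory chain and ATP synthase 7 were called lower (17.5%, against 4.52% of probe sets with 1 gene) and 1 higher, with a median of -0.12. The median over all nuclear protein-coding genes was -0.06, and 10 common reference genes had a median of -0.16. NDE1, the NADH dehydrogenase of the outer face of the inner membrane, read 2139, 1777 and 1911 at 90 min, against 3586, 3820 and 3693 at 45 min. The groups lay far apart, and the difference was -0.93 ± 0.09 (adjusted p = 5.94e-05; -0.87 without replicate 2, adjusted p = 6.04e-04). RIP1, the Rieske iron-sulfur protein of complex III, read 1661, 1322 and 1580 at 90 min, against 2679, 2708 and 2743 at 45 min (-0.84 ± 0.11, adjusted p = 0.00146). ATP3, the central stalk subunit of ATP synthase, read 1958, 1451 and 1704 at 90 min, against 2969, 2885 and 3043 at 45 min (-0.81 ± 0.11, adjusted p = 0.00172). In these 3 genes the arrays of 45 min were closer to each other than those of 90 min.

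The other 4 respiratory genes called lower were COX5A, COX6, SDH2 and QCR10. COX5A, a subunit of cytochrome c oxidase, read 1481, 1631 and 1528 at 90 min, against 2492, 2522 and 2252 at 45 min (-0.65 ± 0.10, adjusted p = 0.00384). COX6, of the same complex, differed by -0.56 ± 0.11, and SDH2, the iron-sulfur subunit of succinate dehydrogenase, by -0.59 ± 0.12 (adjusted p = 0.0135). QCR10 of complex III (-0.55) was lost without replicate 2 (adjusted p = 0.143), and 6 genes were then called lower. ATP4, of the stator of ATP synthase, was the member called higher, at 1826, 1896 and 2295 at 90 min, against 1564, 1681 and 1382 at 45 min (0.38 ± 0.10, adjusted p = 0.0466), and was not called without replicate 2 (adjusted p = 0.0628). Between 90 and 360 min 26 of the 40 were lower and 0 higher at the later time, against 22% and 15.4% of all probe sets. Of 5467 nuclear protein-coding genes 1784 were lower and 620 higher in that step. COX5A was at 368 ± 37.4 and RIP1 at 441 ± 16.3 by 360 min.

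Of 15 citric acid cycle genes 3 were called lower and 0 higher (20% against 4.52%), and SDH2 is one of the 3. The median of the 15 was -0.18, against -0.06 over nuclear protein-coding genes and -0.16 over the 10 common reference genes. ACO1, aconitase, read 3116, 3573 and 2397 at 90 min, against 4471, 4392 and 5064 at 45 min (-0.63 ± 0.12, adjusted p = 0.007). KGD2, of the 2-oxoglutarate dehydrogenase complex, read 1813, 1325 and 1455 at 90 min, against 2030.4, 2064 and 2135 at 45 min, the groups not overlapping, and passed in the whole fit only (-0.45 ± 0.12, adjusted p = 0.0358; 0.117 without replicate 2). Of 69 genes for mitochondrial ribosomal proteins MRPL13, MRPL16 and MRPL20 were lower, or 4.35% against 4.52% of probe sets with 1 gene, and MRPL16 alone of these 3 kept its call without replicate 2. HEM15, which puts iron into heme, was lower (-0.50 ± 0.11), though not without replicate 2, while HEM12, of an earlier step of heme synthesis, was higher (0.44 ± 0.09). Among 15 glyoxylate cycle and gluconeogenesis genes 0 were called, with a median of -0.11. Beside shares of 4.52% lower and 1.31% higher among probe sets with 1 gene, that 0 does not set these genes apart. Their members ICL1 (-0.11, 95% interval -0.32 to 0.09), PCK1 (-0.21, -0.57 to 0.15) and FBP1 (0.11, -0.16 to 0.39) were among the bright signals of both times.

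**Figure D4:**
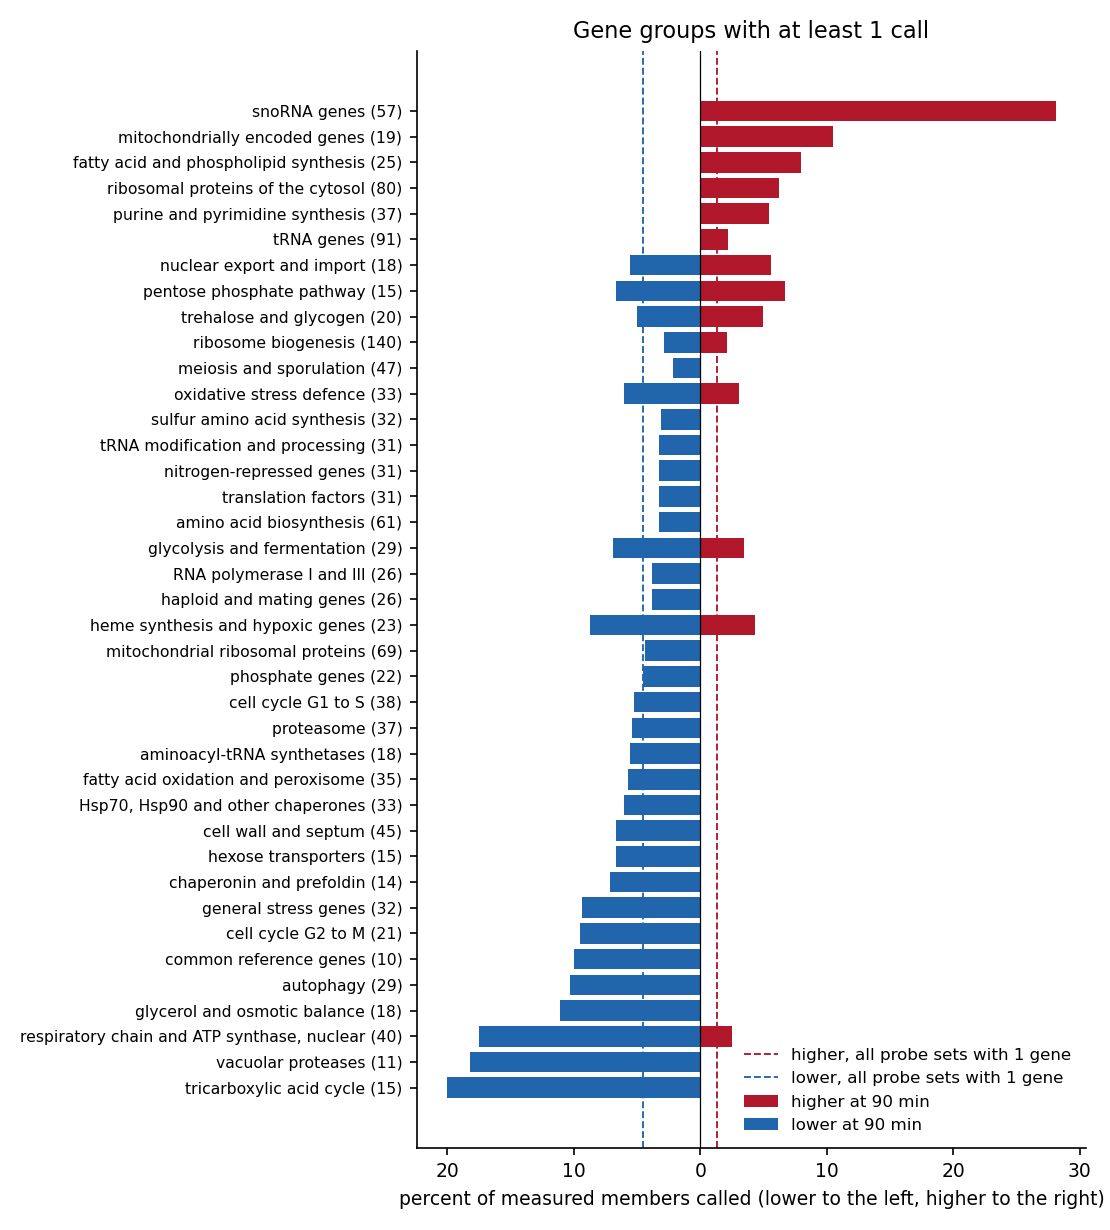
Percent of measured members called higher (red, right) or lower (blue, left) at 90 min, for each gene group with at least 10 members measured and at least 1 call; numbers in brackets are members measured. Dashed lines are the shares over all probe sets with 1 gene, 1.31% higher and 4.52% lower, and most groups hold only 1 to 3 calls.

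Of 20 trehalose and glycogen genes 1 was lower and 1 higher, 5% each way, against 4.52% lower and 1.31% higher among probe sets with 1 gene. GAC1, which directs a phosphatase to switch on glycogen synthase, read 454, 405 and 501 at 90 min, against 892, 919.9 and 788 at 45 min (-0.94 ± 0.10, adjusted p = 3.62e-04; -0.86 without replicate 2, adjusted p = 0.00159). GPH1, glycogen phosphorylase, which releases glucose from glycogen, read 988, 1335 and 1245 at 90 min, against 678, 756 and 779.5 at 45 min (0.68 ± 0.16, adjusted p = 0.0251; adjusted p = 0.0809 without replicate 2). Neither pair of groups overlapped. GAC1 was at 108 ± 5.77 and GPH1 at 1930 ± 121 by 360 min. The trehalose synthesis genes TPS1 (-0.22, 95% interval -0.42 to -0.03, adjusted p = 0.16) and TPS2 (0.14, -0.24 to 0.51) and the trehalase gene NTH1 (0.20, -0.07 to 0.47) did not pass.

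Among glycolysis and fermentation genes the subunits of phosphofructokinase were lower and a glyceraldehyde phosphate dehydrogenase higher. PFK1 read 1767, 1123 and 1499 at 90 min, against 2018, 2103 and 2077 at 45 min (-0.52 ± 0.13, adjusted p = 0.0271). PFK2 read 1496, 1099 and 1277 at 90 min, against 1927, 1938 and 1522 at 45 min (-0.48 ± 0.13, adjusted p = 0.0489). Replicate 2 was the lowest array of 90 min in both, and neither passed without it (limma adjusted p = 0.078 for PFK1 and adjusted p = 0.154 for PFK2). TDH1 read 3537, 4139 and 3292 at 90 min, against 2351, 2467 and 2811 at 45 min (0.52 ± 0.10, adjusted p = 0.00788), and passed without replicate 2 too. Of 29 genes, 3.45% were thus higher and 6.9% lower, against 1.31% and 4.52% of probe sets with 1 gene. In the pentose phosphate pathway, TKL1, transketolase, was higher (0.57 ± 0.13) and SHB17, sedoheptulose bisphosphatase, lower (-0.42 ± 0.11), and neither passed without replicate 2. Each was 1 of 15 genes of that group (6.67%). Of 18 genes of glycerol and osmotic balance 2 were lower (11.1%, against 4.52% of probe sets with 1 gene) and 0 higher, with a median of -0.09. Both genes for glycerol 3-phosphate dehydrogenase, the first step to glycerol, were lower. GPD1 read 2719, 2536 and 3439 at 90 min, against 4402, 4113 and 4227 at 45 min (-0.56 ± 0.16, adjusted p = 0.0465), and was not called without replicate 2 (adjusted p = 0.135). GPD2 differed by -0.74 ± 0.15 (adjusted p = 0.00977) and kept its call. Of the 15 genes measured in the hexose transporter group only MTH1, a regulator of transporter genes and not a transporter, was called (-0.40), and not without replicate 2. Its share was 6.67%, against 4.52% lower among probe sets with 1 gene. HXT1, HXT2 and HXT3 did not pass.

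**Figure D5:**
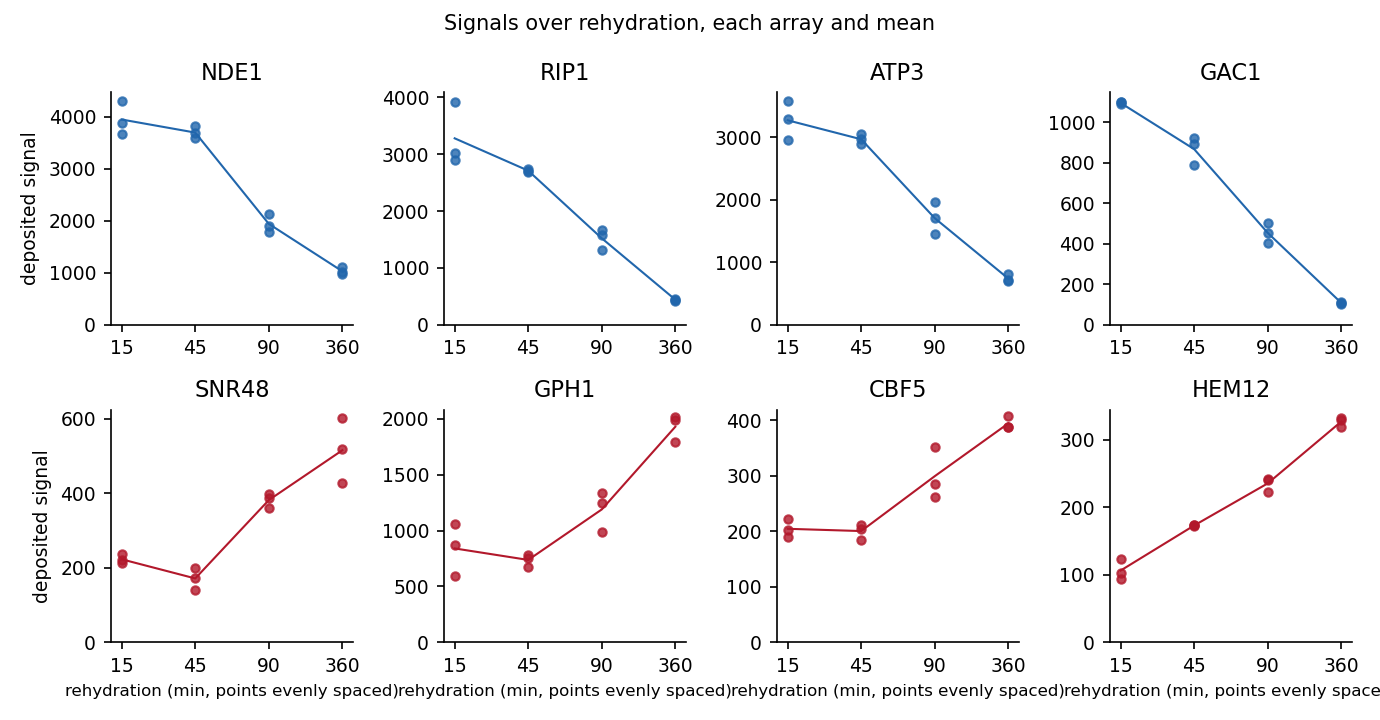
Deposited signal of 8 genes at 15, 45, 90 and 360 min of rehydration, each point 1 array and the line through the means of 3. NDE1, RIP1, ATP3 and GAC1 (blue) were lower at 90 min than at 45 min, and SNR48, GPH1, CBF5 and HEM12 (red) were higher.

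Of 29 autophagy genes 3 were called lower and 0 higher (10.3% against 4.52%), with a median of -0.17. ATG3, the enzyme that joins Atg8 to lipid, read 616, 606 and 643 at 90 min, against 946, 1082 and 969 at 45 min (-0.68 ± 0.10, adjusted p = 0.00182). ATG1, the kinase that starts autophagy, read 1325, 1105 and 1193 at 90 min, against 1839, 1697 and 1587 at 45 min (-0.50 ± 0.13, adjusted p = 0.03; adjusted p = 0.0891 without replicate 2). ATG15, the vacuolar lipase, was lower in the probe set that stands for it (-0.62 ± 0.11), and its other 2 did not pass (-0.65 and -0.53). Of 11 genes for vacuolar proteases and related proteins 2 were lower (18.2%, against 4.52%), and neither is a protease of the vacuole interior. PBI2, an inhibitor of vacuolar proteinase B, read 5591, 3457 and 4833 at 90 min, against 7842, 7807 and 7700 at 45 min (-0.78 ± 0.19, adjusted p = 0.0247; adjusted p = 0.0857 without replicate 2). YPS1, a protease of the cell surface, read 2581, 2235 and 2294 at 90 min, against 3273, 3563 and 3643 at 45 min (-0.56 ± 0.10, adjusted p = 0.00532). The proteasome subunits RPN7 and RPN12 were the 2 of 37 called (5.41%, near the 4.52% of probe sets with 1 gene), both lower (-0.37 and -0.42), and neither passed without replicate 2.

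Of 12 hydrophilin and dehydration-induced genes 0 were called, with a median of -0.16. Among probe sets with 1 gene 4.52% were lower and 1.31% higher, so a 0 among 12 does not set the group apart. The hydrophilin gene SIP18, whose small product is linked to survival of drying, read 9815, 7800.2 and 9625 at 90 min, against 9980, 9812 and 8481 at 45 min, overlapping groups with a difference of -0.06 (95% interval -0.46 to 0.35). GRE1, another hydrophilin gene, differed by -0.26 (-0.72 to 0.21), STF2 by -0.23 (-0.49 to 0.02) and HSP12 by -0.21 (-0.71 to 0.29). HSP26, a small heat shock protein, read 3964, 4452 and 4067 at 90 min, against 5292, 5106 and 4812 at 45 min. Its groups did not overlap, but it missed the threshold (-0.29 ± 0.09, adjusted p = 0.0846). HSP104, the disaggregase, read 1134, 1316 and 1272 at 90 min, against 1654, 1633 and 1553 at 45 min, and missed it too (-0.38 ± 0.13, adjusted p = 0.0992). The catalase gene CTT1 was at 0.29 (-0.14 to 0.71). These intervals leave room for moderate changes and do not show that the levels were equal.

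CCT3, a subunit of the cytosolic chaperonin that folds actin and tubulin, read 488, 517 and 382 at 90 min, against 794, 739 and 867 at 45 min (-0.80 ± 0.10, adjusted p = 8.48e-04; -0.89 without replicate 2). It was the 1 called of 14 genes measured for the chaperonin and its helper prefoldin (7.14%, against 4.52% of probe sets with 1 gene). The Hsp40 gene YDJ1 differed by -0.55 ± 0.11 (adjusted p = 0.0119), and SSE2, a partner of Hsp70, by -0.31 ± 0.08. They were 2 of 33 chaperone genes, 6.06% against 4.52% of probe sets with 1 gene. TRX1, thioredoxin, read 251, 292 and 218 at 90 min, against 451, 402 and 333 at 45 min (-0.64 ± 0.14, adjusted p = 0.0137). The glutaredoxin gene GRX2 was lower (-0.47 ± 0.12), while OYE2, an NADPH oxidoreductase, was higher by 0.44 ± 0.12. Of 33 oxidative stress genes 6.06% were lower and 3.03% higher, against 4.52% and 1.31% of probe sets with 1 gene. The calls for YDJ1 and TRX1 held without replicate 2, and those for SSE2, GRX2 and OYE2 did not. Of 32 general stress genes FMP33, GPD1 and RTN2 were lower (9.38%, against 4.52%), and 0 passed without replicate 2.

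Among genes of the cell surface and the cell cycle, PIR3 and SWI4 fell. Called lower were 3 of 45 cell wall and septum genes (6.67%), against 4.52% of probe sets with 1 gene. Of the cell cycle genes, 2 of 38 for G1 to S (5.26%) and 2 of 21 for G2 to M (9.52%) were lower. In these groups 0 were higher. PIR3, a cell wall protein, read 624, 757 and 570.4 at 90 min, against 1263, 1287 and 1289 at 45 min (-0.99 ± 0.14, adjusted p = 0.00182; -1.10 without replicate 2). HSP150, of the same family, differed by -0.48 ± 0.12, and the anaerobic cell wall gene DAN1 was at background in all 3 samples of 90 min and at least 1.11-fold lower there. Neither HSP150 nor DAN1 was called without replicate 2, and the fitted difference of DAN1 was then -0.87, against -1.44 with it. SWI4, a DNA-binding factor of genes that start the cell cycle, read 42.5, 34.9 and 37.6 at 90 min, against 59, 65.8 and 68.7 at 45 min (-0.75 ± 0.16, adjusted p = 0.0158; adjusted p = 0.0543 without replicate 2). CDC6, which loads the replication helicase, lay near background, at 2.2, 2.7 and 2.7 at 90 min, against 36.2, 23.7 and 35.2 at 45 min, at least 1.07-fold lower (adjusted p = 0.00257). CDC6 was also the 1 named gene called by the fit with only the 6 arrays. Its 3 values at 90 min lie under the floor of 2.8 and were set equal, so that call is not counted as added support. The kinase gene CDC15 (-0.60) and the factor FKH1 (-0.45) were lower, FKH1 not without replicate 2, and the cyclin genes CLN3 (0.05) and CLN2 (0.71, at background at both times) did not pass. Of markers of other cell states, 1 of 47 genes of meiosis and sporulation was called, RIM4 (-0.71), and 1 of 26 haploid and mating genes, AGA1 (-0.60, not called without replicate 2), or 2.13% and 3.85%, against 4.52% of probe sets with 1 gene.

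DED1, an RNA helicase of translation initiation, is among the named falls outside these groups. It read 493, 466 and 521 at 90 min, against 841, 1110 and 1015 at 45 min (-0.99 ± 0.15, adjusted p = 0.00212). SFL1, a repressor of cell surface genes, read 461, 444 and 518 at 90 min, against 880.1, 899 and 887 at 45 min (-0.91 ± 0.11, adjusted p = 8.48e-04). Neither pair of groups overlapped. RTR1, a phosphatase of RNA polymerase II, read 39.9, 30 and 37.2 at 90 min, against 85.2, 61.9 and 57.9 at 45 min (-0.93 ± 0.17, adjusted p = 0.00658). All 3 passed without replicate 2. TVS1 read 606, 564 and 594.5 at 90 min, against 1128, 1092 and 1145 at 45 min (-0.93 ± 0.08, adjusted p = 5.94e-05). Of the 2 other TVS1 probe sets 1 was lower too (-0.62) and 1 did not pass (-0.19).

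RAD10, a subunit of the nuclease that cuts out damaged DNA, read 61.7, 69.7 and 47.5 at 90 min, against 103, 126 and 116 at 45 min (-0.96 ± 0.16, adjusted p = 0.00458). PEP5, of vacuolar protein sorting, read 38.8, 51.9 and 38.3 at 90 min, against 77.3, 91.2 and 74.4 at 45 min (-0.92 ± 0.18, adjusted p = 0.0098). SWM1, of the complex that marks mitotic proteins for breakdown, differed by -1.05 ± 0.22, MCH2 by -0.95 ± 0.25 and LDO45, of lipid droplets, by -0.93 ± 0.24. MRE11, of double-strand break repair, was at background in all 3 samples of 90 min and at least 1.23-fold lower there. LDO45 and MRE11 were not called without replicate 2 (adjusted p = 0.0881 for LDO45 and adjusted p = 0.0506 for MRE11). Lower too were MET13 of methionine synthesis (-0.75 ± 0.10), ILV3 of branched amino acid synthesis (-0.67 ± 0.13), LEU1 of leucine synthesis (-0.48 ± 0.12, not called without replicate 2) and TRM8 of tRNA methylation (-0.78 ± 0.19). Their groups did not stand out. Of 61 amino acid synthesis genes 3.28% were lower, with a median of 0.06. Of 32 sulfur amino acid genes 3.12% were lower, with a median of 0.08. Of 31 tRNA modification genes 3.23% were lower, against 4.52% of probe sets with 1 gene.

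Rises in nuclear genes that code for proteins were fewer, 63 of 6291 probe sets against 294 falls. IMD4 and GUA1, of the 2 steps from IMP to GMP, were the 2 of 37 nucleotide synthesis genes called (5.41% higher, against 1.31% of probe sets with 1 gene). IMD4 read 159, 207 and 222 at 90 min, against 67.6, 102 and 157 at 45 min (0.92 ± 0.24, adjusted p = 0.036), and its other probe set did not pass (0.09). GUA1 read 482, 529 and 529 at 90 min, against 297, 311 and 409.9 at 45 min (0.61 ± 0.16, adjusted p = 0.0408). In both genes replicate 3 of 45 min came closest to the arrays of 90 min, and neither call held without replicate 2 of 90 min (limma adjusted p = 0.0887 for IMD4 and adjusted p = 0.0915 for GUA1). PSD2 and OPI3, enzymes of phospholipid synthesis, were higher by 0.70 ± 0.19 and 0.41 ± 0.10, 2 of 25 genes of that group (8%, against 1.31%). ERV15, of vesicle transport, read 407, 499 and 441 at 90 min, against 182, 170.4 and 344.5 at 45 min (1.02 ± 0.22, adjusted p = 0.0137). EHT1, which makes ethyl esters, was higher by 0.94 ± 0.26, and MPS2, of the spindle pole body, by 0.83 ± 0.21. ERV15 held without replicate 2 (adjusted p = 0.0482), and PSD2, OPI3, EHT1 and MPS2 did not.

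A few genes were called in this step and in the one before it. Their choice followed a look at the values, since no probe set that met the naming rule was called in opposite directions in the 2 steps. Among probe sets with 1 gene, 3 were higher in both steps, 8 lower in both and 1 opposite. HEM12, uroporphyrinogen decarboxylase, averaged 106 ± 15.4 at 15 min, and read 172, 174 and 173 at 45 min and 223, 242 and 241 at 90 min (45 minus 15 min 0.71, adjusted p = 0.00553; 90 minus 45 min 0.44, adjusted p = 0.00978). YIH1, a damper of the Gcn2 response to amino acid lack, averaged 267 ± 37.9 at 15 min, 409 ± 46.2 at 45 min and 579.6 ± 72.8 at 90 min. PET20, a mitochondrial protein needed for respiration, averaged 2008 ± 110 at 15 min, 1202 ± 89.3 at 45 min and 735 ± 118 at 90 min. PUF2, an RNA-binding protein, averaged 1005 ± 76.0, 652 ± 53.4 and 384 ± 58.3 at those times, and RLI1, of ribosome recycling, 354 ± 51.6, 191 ± 19.9 and 115 ± 34.6. Of these, RLI1 was not called in the later step without replicate 2 of 90 min. In the opposite direction, RBS1 was at 9.8, 10.1 and 10.5 at 45 min, between 26.9 ± 6.03 at 15 min and 29.5 ± 7.05 at 90 min, all close to or under background. Its brighter probe set did not pass from 15 to 45 min (-0.07, adjusted p = 0.953), so the opposite calls rest on 1 dim probe set.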

How the data were processed

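The samples were 21 Affymetrix YG_S98 arrays, 3 at each of 7 stages. The deposited values are linear intensity signals per probe set. Their trimmed means are near 1 value on every array, so they were taken as scaled by the authors; per the labels, cRNA was hybridized, and the software settings are not given in the sources used here. Of 9335 probe sets, 60 chip controls were left out. Deposited intensities were floored at 2.8 (the 5th percentile) and converted to log2 here. limma 3.58.1 in R 4.3.3 fitted 1 mean per stage over 21 arrays, and p-values were adjusted by Benjamini and Hochberg over 9275 probe sets. Background was the 95th percentile of 19 negative control probe sets. Where all 3 arrays of a time lay at it, folds are lower bounds. The number of arrays limits precision. In lists, the brightest probe set represents a gene that has several. Genes are named from the platform annotation, and the 6504 probe sets with 1 gene were matched to RefSeq.

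Named genes are the 15 largest rises and falls with no overlap, no cross-hybridization suffix and a signal above background, up to 4 members of each of 43 gene lists by adjusted p, and 27 genes given whatever their values. The snoRNA, mitochondrial and further genes named beyond these were chosen after their values were seen. The comparison and the lists were chosen with earlier results of these data known. Scripts were tested on simulated data. Same-numbered replicates were not paired, since their deviations correlated at 0.03, -0.04 and -0.05. No promoter sequences were used here.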

Additional observations from a re-analysis of the deposited data

How the results depend on the processing

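Higher and lower probe sets numbered 201 and 307. Spike-in scaling gave 13 and 701 (1.82% of calls higher, against 39.6%), the fit with only the 2 groups 1 and 1, scan day as a random block 71 and 115, and a 2-fold minimum 27 and 23. Leaving out 1 array at a time gave 96 to 231 higher and 146 to 351 lower. The lowest counts came without replicate 2 of 45 min (96 and 146). Without replicate 3 of 90 min there were 100 and 164, and without replicate 1 of 45 min 153 and 186. Called snoRNA probe sets ranged from 6 to 17 and lower respiratory genes from 5 to 7 in those fits. The replicate block, although the numbers do not pair the samples, gave 158 and 261. Quantile normalization, median centring, other floors, an offset of 50, a filter on dim probe sets and an intensity trend kept both counts within 1.5 times. Of 1099 values of 69 named genes under these alternatives, 926 kept their side of the threshold, 170 no longer passed, 3 newly passed and 0 called values changed sign. Of 752 list medians, 120 moved by more than the replicate spread, 73 of them outside spike-in scaling. The cause was not tested. Dim probe sets near background, such as CDC6 and SNR78, allow bounds only.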

Other observations

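Probe sets for which no gene is listed held 100 of the 201 rises and 12 of the 307 falls. They make up 2443 of the 9275 tested. Of the 290 among them whose suffix f marks probes shared by a family of similar sequences, 66 were higher at 90 min (22.8%, against 2.17% of all probe sets) and 0 were lower, with a median of 0.33. Without replicate 2 of 90 min 41 of the 290 were higher. Of 1861 with no suffix and no gene, 26 were higher (1.4%) and 12 lower.

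HOR7 was picked after its values were seen, for the spread between its replicates. It read 1804, 8.2 and 498 at 90 min, against 3838, 5913 and 2740 at 45 min. The groups did not overlap, but the difference did not pass in limma (-4.35 ± 2.01, adjusted p = 0.23).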
